A study of Arabidopsis thaliana with 72 samples.

Results

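The late risers described here are probe sets whose signal rose at least 4-fold in Arabidopsis seedlings after 3 h of abscisic acid (ABA), with little change at 1 h, and that neither methyl jasmonate (MJ) nor the auxin indole-3-acetic acid (IAA) raised at 3 h. Levels are given on the scale log2(55 + scaled signal), where the scaled signal is the array intensity after each array was brought to a 2% trimmed mean of 1147. A member had an ABA minus mock difference under 0.7 at 1 h and of at least 2 at 3 h, and both its ABA arrays at 3 h lay above both mock arrays. Its mean ABA level at 3 h was at least 9, and its MJ and IAA differences at 3 h were under 0.5. These conditions took in 102 of 22746 probe sets that are no controls. The rule leaves out 3 probe sets by ID, which name SAG29, AT3G17520 and COR15A. Of the 102 members, 49 name a single gene, 2 name several genes and 51 have no gene name in the annotation used here. Unnamed members are called by their probe set.

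The study treated whole seedlings, 7 days old and grown at 22 °C, and measured their RNA on 72 Affymetrix ATH1 arrays in 36 groups of 2. Wild-type Col-0 received mock treatment, 10 µM ABA, 10 µM MJ, 1 µM IAA, 1 µM zeatin, 1 µM gibberellin GA3, 10 µM of the ethylene precursor ACC or 10 nM brassinolide (BL), and was sampled after 30 min, after 1 h and after 3 h. Mutant ga1-5 seedlings received mock or 1 µM GA3 and mutant det2-1 seedlings received mock or 10 nM BL at the same times, so that ABA was given to Col-0 alone. The ga1-5 mutant is a dwarf impaired in gibberellin synthesis and det2-1 a dwarf impaired in brassinosteroid synthesis. The arrays of a genotype and time form a lettered set of their own, so genotype and time cannot be told apart from set.

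ABA is the plant hormone of drought and seed maturation. It binds soluble receptors that then inhibit PP2C phosphatases, which frees SnRK2 kinases to activate bZIP transcription factors at target genes. Its best known targets protect cells against water loss, such as the late embryogenesis abundant (LEA) proteins that also build up in maturing seeds. Some targets answer within minutes, while others need proteins or factors that must first be made.

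Each group had 2 arrays, which limits the precision of every value. Whether both were grown and treated apart is not given in the labels, and the p-values rest on a spread between arrays that could be technical alone. Array intensity depends on the probe, so no level of one probe set is set against that of another, and in whole seedlings fewer cells of a type and less RNA per cell cannot be told apart. Impossible values stood on replicate 2 of IAA at 30 min for 1973 probe sets, 5 of them members, and were left out there. In the Col-0 ABA arrays at 3 h, replicate 1 exceeded replicate 2 for 73 of the 102 members, against 55.5% of the 17262 probe sets tested. It did so for 69 members at 30 min and 70 at 1 h of ABA and for 73 under zeatin at 3 h, whereas the Col-0 mock arrays split the members 50, 62 and 53 at 30 min, 1 h and 3 h. Tissue could be checked on 3 named markers. RCA, the Rubisco activase of green tissue, had scaled signals of 29133 and 29243 in mock and 16197 and 29528 in ABA seedlings at 3 h. The root hair expansin EXPA7 had 754.6 and 667.7 in mock and 1183 and 586.2 in ABA seedlings, so both shoot and root RNA were present. The expansin EXPA18, also of root hairs, had 1132 and 1077 in mock and 1875 and 842.2 in ABA seedlings. No seed reserve marker was named on the array annotation.

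The members chosen by these values kept close to the mock level for 1 h and then rose steeply. Over the 102 members the median level of mock seedlings was 8.34 at 30 min, 8.37 at 1 h and 8.52 at 3 h. In ABA seedlings the median was 8.53 at 30 min, 8.69 at 1 h and 11.35 at 3 h. The ABA minus mock difference at 3 h ran from 2.0 to 6.0 on the log2 scale with a median of 2.55, which are 4.0-fold, 63.9-fold and 5.87-fold. Each fold given here and below is such a difference of levels turned back from log2, with the constant added to the signal left in. It therefore understates the change in scaled signal, most of all for dim probe sets. The ABA minus mock difference lay between 2 and 2.5 for 48 members, between 2.5 and 3 for 20, between 3 and 4 for 28 and at 4 or above for 6. At 1 h the median difference was 0.30 and 83 members were above 0 (81.4%, against 47.5% of all probe sets tested). The highest was 0.69, just under the limit of the rule. From 1 h to 3 h of ABA the level rose by a median of 2.28 and by at least 1.15. These contrasts served to choose the members, so their values are a description without a test. In the same ABA contrast at 3 h, 1756 of the 17262 probe sets tested rose in limma (10.2%) and 2859 fell (16.6%).

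**Figure D1:**
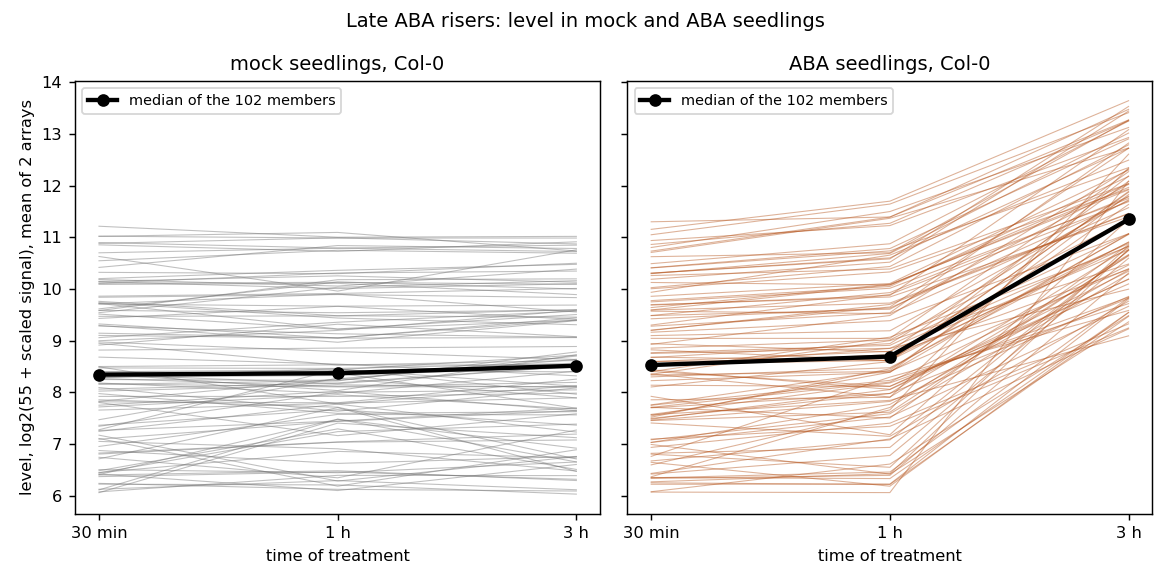
Level of each of the 102 members, as log2(55 + scaled signal) averaged over 2 arrays, in Col-0 mock (left) and ABA seedlings (right) at 30 min, 1 h and 3 h, with the median as a black line. The mock median stays between 8.34 and 8.52, while the ABA median goes from 8.69 at 1 h to 11.35 at 3 h.

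Members differed in how bright they were before ABA. In 47 of them both mock arrays at 3 h were at or under the 40th percentile of the array, in 44 both were above it and in 11 only 1 was. Across the 102 members the mock level at 3 h and the ABA difference had a Pearson correlation of -0.48, as a description only, since both share the mock arrays and the 55 added to the signal compresses the change of dim probe sets. The 2 ABA arrays differed by a median of 0.37 on the log2 scale and the 2 mock arrays by 0.32. The gap exceeded 1 for 6 members in ABA and for 12 in mock seedlings.

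The unnamed 247718_at changed most of all members. Larger ABA differences at 3 h among probe sets that are no members included those of SAG29 (7.17) and AT3G17520 (6.97), which the rule leaves out by ID. LEA4-5 (6.97), which had already risen at 1 h, was another. The scaled signals of 247718_at were 9.9 and 16.6 in mock and 5914 and 3123 in ABA seedlings at 3 h. At 1 h of ABA it stood at 12.5 and 11.0, as dim as in mock seedlings. The same probe set stayed between 10.2 and 33.0 on the 8 arrays of zeatin, GA3, ACC and BL at 3 h.

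Among the members with a stated role, those linked to protection of cells against drying, cold or heat held both a very steep and a modest riser. AT3G15670, a LEA family protein, had scaled signals of 45.2 and 138.9 in mock and 7084 and 5433 in ABA seedlings at 3 h. Its level difference amounted to 44.9-fold, less than the ratio of these signals. At 1 h of ABA its arrays read 391.7 and 36.7, so that 1 array lay above both mock arrays (91.1 and 141.6) and the other below both. AT1G04560, a membrane protein of the AWPM-19 family, stood at 18.3 and 53.4 in mock and 1620 and 1379 in ABA seedlings. AT1G52560, a small heat shock protein of the kind that holds unfolding proteins in solution, stood at 56.2 and 46.8 in mock and 1202 and 1227 in ABA seedlings, the closest pair of ABA arrays among these 3. No other Col-0 array at 3 h read above 160.2 for any of these 3 genes. AT4G37220, of a cold acclimation family, rose 8.44-fold and AT5G43260, a DnaJ-related chaperone, 4.24-fold. The median over these 5 was 11.9-fold.

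Enzymes and binding proteins of lipids made up 7 members, with rises from 4.6-fold to 11.7-fold and a median of 7.13-fold. AT5G01300, of the family that binds phosphatidylethanolamine, had scaled signals of 205.3 and 556.0 in mock and 4821 and 4415 in ABA seedlings at 3 h. AT1G62510, of the lipid transfer and seed storage albumin family, was already well measured in mock seedlings at 825.7 and 891.9 and reached 8419 and 8869 under ABA. At 1 h of ABA it read 582.7 and 1330, the same spread as the mock arrays of that time (609.0 and 1309). The GDSL lipase family gave 3 members, AT3G50400 with 8.87-fold, AT5G45950 with 5.38-fold and AT2G04570 with 4.6-fold. AT3G62590, a lipase of the plastid, rose 7.13-fold and AT1G05450, another lipid transfer family member, 5.65-fold.

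Transporters were led by OCT1, an organic cation and carnitine transporter. It had 7.7 and 13.2 in mock and 2828 and 1004 in ABA seedlings at 3 h. Its level difference amounted to 26.7-fold, less than the ratio of these signals. Both ABA arrays showed the rise, although they differed by more than the spread of most members. One other array showed OCT1 as bright. BL at 1 h gave 1304 on replicate 1 and 30.5 on replicate 2, and AT1G19200, a zinc finger protein of the FCS-like family, read 3001 and 232.7 on the same arrays. Those 2 genes, singled out after their values were seen, were the only members that differed by more than 2 on the log2 scale between the 2 arrays of BL at 1 h. The amino acid transporter family member AT5G65990 rose 7.51-fold, AT1G68570 (NPF3.1, of the nitrate and peptide transporter family) 5.76-fold and the GABA transporter gene AT1G08230 4.86-fold.

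Members tied to ubiquitin, which marks proteins for breakdown, were 3. AT3G13672, the SINA2 member of a ubiquitin ligase family, had scaled signals of 253.8 and 378.7 in mock and 4953 and 5315 in ABA seedlings at 3 h. Its level difference amounted to 14.2-fold. At 1 h of ABA it read 156.9 and 215.8, with mock at 206.9 and 267.4, so the groups overlapped and no early rise was visible. AT1G55760, a BTB/POZ domain protein of the type that can present targets to ubiquitin ligases, rose 8.59-fold. UBC32, a ubiquitin-conjugating enzyme of the endoplasmic reticulum, rose 6.83-fold.

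Cell wall and secondary metabolism genes made up 7 members, with rises from 4.25-fold to 6.65-fold with a median of 4.64-fold. AT1G68850, a class III peroxidase, rose 6.65-fold and CCR2, a cinnamoyl CoA reductase of the lignin pathway, 5.90-fold. AT3G57020, related to strictosidine synthase, rose 5.26-fold, AT2G29300, related to tropinone reductase, 4.64-fold and AT2G22590, a UDP-glycosyltransferase, 4.51-fold. AT2G21100, a dirigent family protein, rose 4.46-fold and AT3G17130, of a family of invertase and pectin methylesterase inhibitors, 4.25-fold. APL4, a large subunit of ADP-glucose pyrophosphorylase in starch synthesis, stood at the edge of the group. It had 223.4 and 214.8 in mock and 907.3 and 1197 in ABA seedlings, a difference of 2.0.

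The remaining named members with a stated role were 3 other hydrolases (4.30-fold to 5.30-fold) and 5 of varied kind (4.14-fold to 9.39-fold). The latter hold AT3G58450 of the universal stress protein kind (8.93-fold), AT5G50100 of the DCC thiol-disulfide oxidoreductases (5.52-fold), the zinc finger genes AT1G19200 (9.39-fold) and AT1G22160 (4.14-fold) and CPUORF47, a conserved peptide encoded upstream of another reading frame (4.18-fold). Named members without a role given here were 14, with rises from 4.07-fold to 18.2-fold. None of the 49 named members lay next to another in the order of protein-coding genes on the RefSeq TAIR10.1 assembly.

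Of those 14 genes, 7 were among the steepest named risers. AT5G07330 had scaled signals of 100.6 and 10.1 in mock and 1589 and 1981 in ABA seedlings at 3 h. AT5G05220 had 130.4 and 171.7 in mock and 2486 and 3945 under ABA. AT5G45690 had 69.6 and 62.6 in mock and 1739 and 1606 under ABA. In each of these genes the lower ABA array was far above the higher mock array, with the mock pair of AT5G07330 the most spread. AT5G66780 had 64.3 and 124.5 in mock and 1645 and 1983 under ABA. AT5G45310 had 13.8 and 37.5 in mock and 684.5 and 1031 under ABA. AT1G27461 had 12.1 and 16.7 in mock and 697.0 and 616.0 under ABA. The last of the 7, AT4G12580, gave the widest ABA pair, with 2080 and 1164, and a close mock pair of 111.4 and 108.5. Under the other 6 hormones at 3 h the highest value of any of these 7 genes was 290.9, for AT4G12580 on an MJ array.

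**Figure D2:**
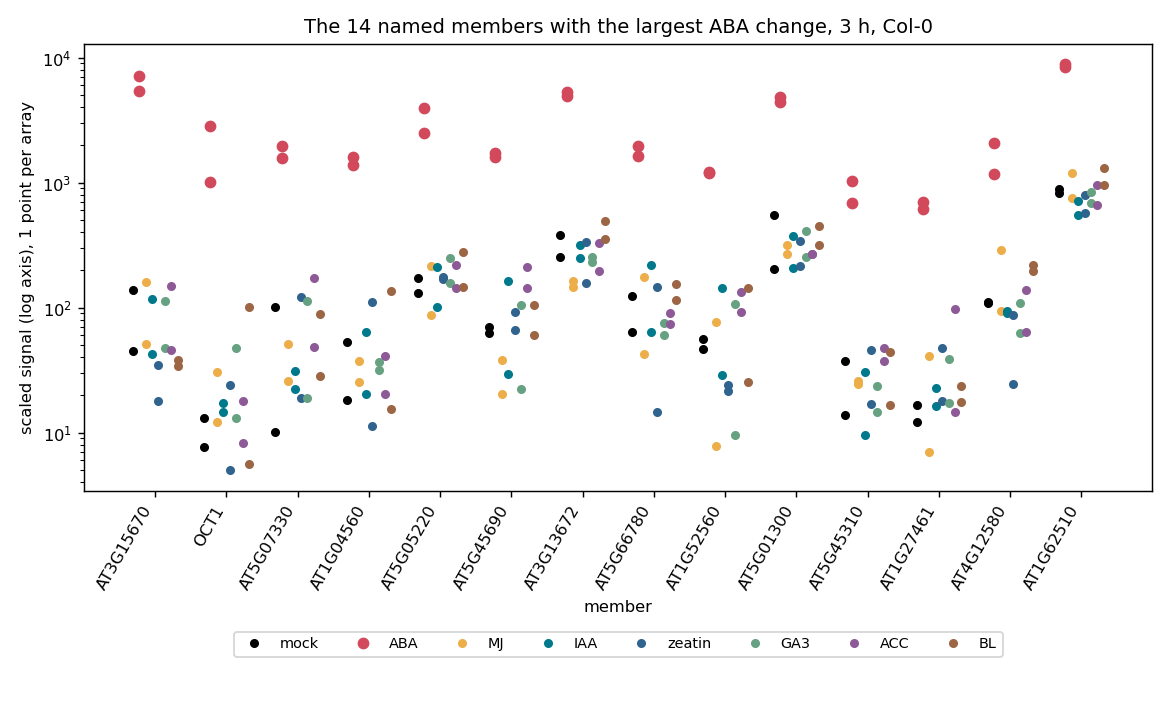
Scaled signal (log axis) of the 14 named members with the largest ABA change on each Col-0 array at 3 h, 2 points per treatment. For every gene both ABA points lie above all 14 points of the other treatments, as a description, since the rule chose members with high ABA arrays. The lowest ABA point is the 616.0 of AT1G27461.

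The threshold of 2 separates members from very similar probe sets. Just inside it lay 263127_at at 2.01, 250556_at at 2.0 and APL4 at 2.0. Just outside, with every other condition met, lay AT1G22930 at 1.99, AT2G38905 at 1.98 and AT5G62150 at 1.98. The unnamed 263127_at had 672.5 and 610.8 in mock and 3097 and 2456 in ABA seedlings, and 250556_at had 403.9 and 572.1 in mock and 1850 and 2374 in ABA seedlings.

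Of the 102 members 101 passed the filter on low signal, all but 260540_at. Of these, 77 passed without the ABA arrays at 3 h and 24 through those arrays alone, the group where the rule had made them high. The counts of members called are therefore a description and no support for the group as a whole. Among the 77 no member was called for ABA or any other hormone at 30 min in Col-0, 7 differed among zeatin, GA3, ACC and BL at 3 h, 0 were called for GA3 in ga1-5 and 3 for BL in det2-1 at 3 h. Between mock-treated mutants and mock-treated Col-0 at 30 min 20 of the 77 were called for ga1-5 and 16 for det2-1.

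At 30 min, on arrays the rule did not use, no member was called for ABA. None of the 101 members tested was called in limma at an adjusted p under 0.05, where 54 of 17262 probe sets were (0.313%). At an unadjusted p under 0.05 it was 5 members (4.95%) against 5.96% of all probe sets, and the smallest adjusted p was 0.275, for AT1G54120. Among the 77 members it was also 5 (6.49%). The median difference was 0.05 on the log2 scale against 0.02 over all probe sets. Above 0 were 59 of 102 members (57.8%), against 53.8% of all probe sets. AT3G15670 had 13.3 and 10.1 in mock and 84.1 and 12.3 in ABA seedlings, so its 2 ABA arrays did not agree. UBC32, chosen after its values were seen, had 1273 and 1182 in mock and 1595 and 1461 in ABA seedlings, groups that did not overlap but lay close together. A further 142 probe sets met the same conditions except that ABA had already raised them by at least 0.7 at 1 h. Of those early risers 12 were called at 30 min, with a median difference of 0.37, and their median difference at 3 h was 2.88. No test sets both groups of probe sets against each other.

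At 30 min no member was called for any of the other 6 hormones, where 417 of 17262 probe sets were called for at least 1 of them (2.42%). At an unadjusted p under 0.05 IAA and zeatin each gave 4 members (3.96%), against 3.27% and 2.77% of all probe sets. GA3 gave 8 members (7.92% against 1.84%) and ACC 8 (7.92% against 9.21%), while MJ gave 11 (10.89% against 8.85%) and BL 11 (10.89% against 12.57%). The share of members was thus over that of all probe sets for GA3, by 6 of the 77 members (7.79%) as well, yet each adjusted p under GA3 was 1.0. The smallest adjusted p was 0.128, for AT1G54120 under BL. Without replicate 1 of BL at 30 min, 1 member was called.

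At 3 h both ABA arrays lay above all 8 arrays of zeatin, GA3, ACC and BL for each of the 102 members, and the ABA mean exceeded the highest of these 4 group means by 1.32 to a median of 2.23. These 8 arrays took no part in the rule, but the rule chose members whose ABA arrays were high. The separation is therefore a description without a test, and its share over all probe sets is not given here. The differences from mock at 3 h share the mock arrays with the rule and are given as values. Their medians over the members were 0.01 for zeatin, -0.04 for GA3, -0.05 for ACC and 0.04 for BL, each within 0.1 of the median over all probe sets tested. For MJ and IAA, which the rule capped, they were -0.10 and 0.00. Differences of at least 1 were reached by 4 members under zeatin, AT3G58450 (1.64), 264842_at (1.38), AT1G19200 (1.16) and 259282_at (1.0), and by no member under GA3, ACC, BL, MJ or IAA. Differences of -1 or lower were shown by 252340_at, 249619_at and AT2G22590 under MJ and by AT5G02230 and 249848_at under IAA. They were also shown by 252006_at under zeatin, by AT5G45950, 264842_at and AT5G02230 under ACC and by 264842_at and 257845_at under BL, and by no member under GA3. These members were named after their values were seen. The lowest of these values was that of AT5G02230, a HAD superfamily hydrolase, under IAA (-2.06). It had 1122 and 1117 in mock, 338.6 and 145.8 in IAA and 5803 and 5642 in ABA seedlings at 3 h.

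**Figure D3:**
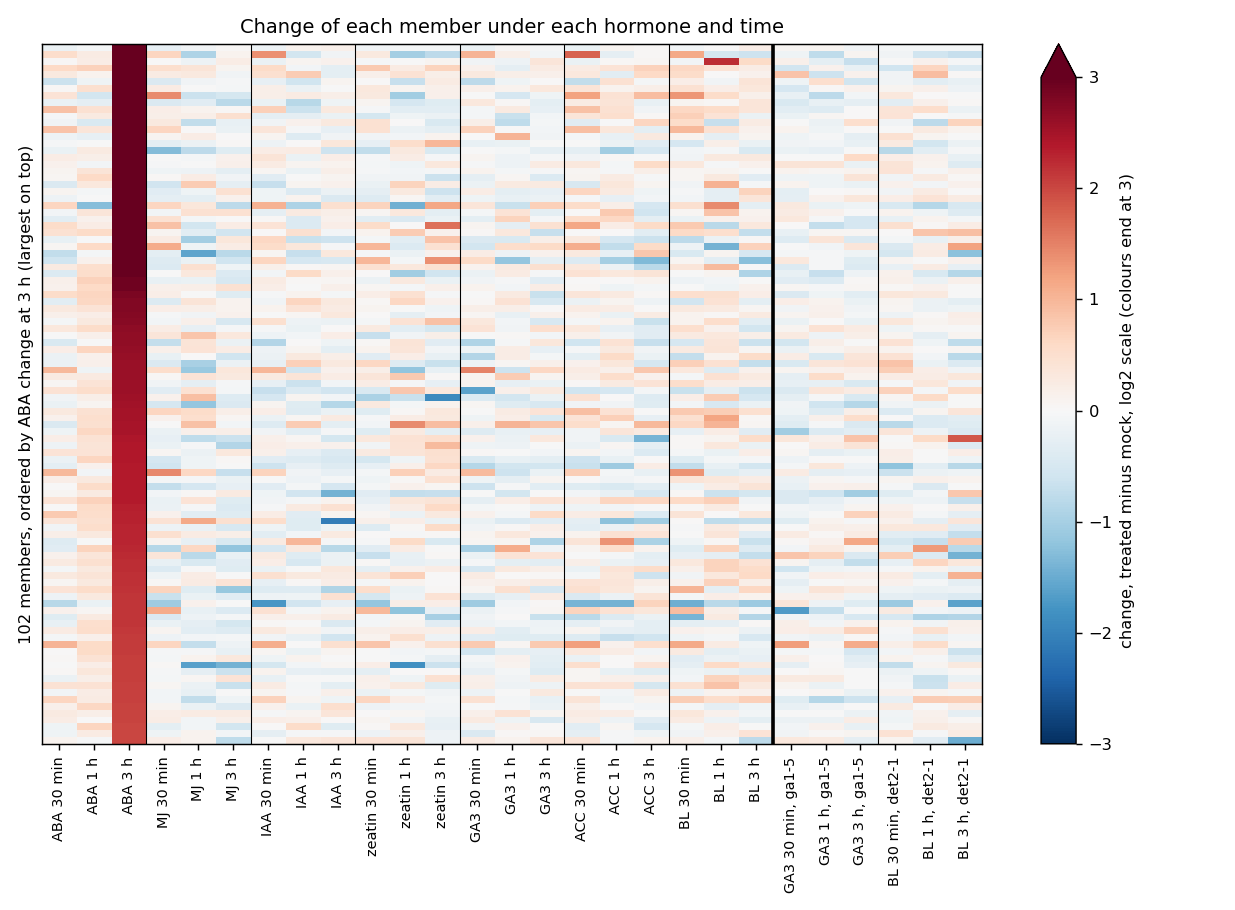
Change of each of the 102 members (rows, ordered by the ABA change at 3 h) under each hormone and time (columns) as treated minus mock on the log2 scale, with the mutants right of the thick line. The single dark column is ABA at 3 h, where all rows exceed 2, and the other columns hold scattered single rows such as AT5G45950 in det2-1 after 3 h of BL (1.87).

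Zeatin, GA3, ACC and BL differed among themselves at 3 h for 7 of 101 members in the moderated F test of limma, against 1225 of 17262 probe sets (7.1%), so the share of members was near that of all probe sets. At an unadjusted p under 0.05 it was 20.79% of members and 17.41% of all probe sets. AT5G45950, a GDSL lipase family gene, separated most (limma adjusted p 3.84e-09). Its scaled signals were 563.8 and 422.8 under ACC, against 1979 and 1928 under zeatin, 2035 and 1442 under GA3 and 2044 and 2029 under BL. Both ACC arrays lay below the other 6, and below both mock arrays at 1508 and 1248. Its call held without each of the 8 arrays in turn, while the count of 7 became 4 without zeatin replicate 1.

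The unnamed 259789_at was highest under GA3 (limma adjusted p 4.76e-05). It read 2415 and 2503 under GA3 against 1364 and 1017 under zeatin, 1410 and 1271 under ACC and 1210 and 1088 under BL. The unnamed 264842_at was highest under zeatin (adjusted p 0.000645), with 466.3 and 407.7 against 127.6 and 78.3 under GA3 and 9.4 to 39.2 on the arrays of ACC and BL. The calls of both held without each array in turn, the first at adjusted p up to 0.00466 and the second up to 0.0189, but 259789_at missed the threshold on the deposited scale without rescaling. The unnamed 259282_at was also highest under zeatin (adjusted p 0.0026), with 849.0 and 647.8 against 224.8 to 406.9 on the arrays of the other hormones. Its call was lost without zeatin replicate 1 (adjusted p 0.121). AT1G54120 was highest under BL (adjusted p 0.00494), with 1450 and 1831, and its call was lost without BL replicate 2 (0.195). AT1G68850 was lost without zeatin replicate 1 (0.445), and the unnamed 256022_at without either zeatin array or ACC replicate 2 (0.105 at most).

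No member changed over time past the threshold in these 4 hormones. From 30 min to 3 h, averaged over zeatin, GA3, ACC and BL, none of 101 members was called in limma, where 95 of 17262 probe sets were (0.55%). At an unadjusted p under 0.05 it was 10 members (9.90%) against 10.72% of all probe sets, the smallest adjusted p was 0.157, and the median shift was 0.02 on the log2 scale.

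The dwarf mutants received no ABA, and their arrays played no part in the rule. In ga1-5, GA3 called no member at 3 h, where 25 of 17262 probe sets were called (0.145%). At an unadjusted p under 0.05 it was 10 members (9.9%) against 4.19% of all probe sets, and the smallest adjusted p was 0.101, for AT5G45950. This gene had 1102 and 838.7 in ga1-5 mock and 1526 and 2108 in GA3 seedlings, groups that did not overlap.

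In det2-1, BL called 3 of 101 members at 3 h, where 771 of 17262 probe sets were called (4.47%), a share near that of the members. AT5G45950 rose 3.67-fold, with 933.6 and 925.5 in mock and 3438 and 3678 in BL seedlings (log2 difference 1.87, SE 0.21, limma adjusted p 2.22e-08). Both BL arrays were far above mock yet below the 8400 and 6929 of Col-0 under ABA. At 30 min the gene read 924.1 and 856.8 in mock and 650.8 and 1206 in BL seedlings, which overlapped. AT1G54120 rose 1.68-fold, with 1864 and 2345 in mock and 3392 and 3715 in BL seedlings (0.75, SE 0.20, adjusted p 0.0167). APL4 fell, with 80.1 and 272.5 in mock and 20.2 and 20.7 in BL seedlings (-1.48, SE 0.35, adjusted p 0.0053). The mock arrays of APL4 were far apart, and its BL arrays were both near the bottom of the scale. The call of AT5G45950 held without each array in turn. Without BL replicate 1 it was the only call left. AT1G54120 lost its call without mock replicate 1 or either BL array (adjusted p up to 0.255), and APL4 without mock replicate 2 or either BL array (up to 0.394). RCA, the shoot marker, moved in the same arrays, with 5584 and 1614 in mock and 1277 and 199.1 in BL seedlings (-2.40, limma adjusted p 0.0289), while EXPA7 (adjusted p 0.878) and EXPA18 (0.879) were not called. Its part in the member changes was not tested.

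**Figure D4:**
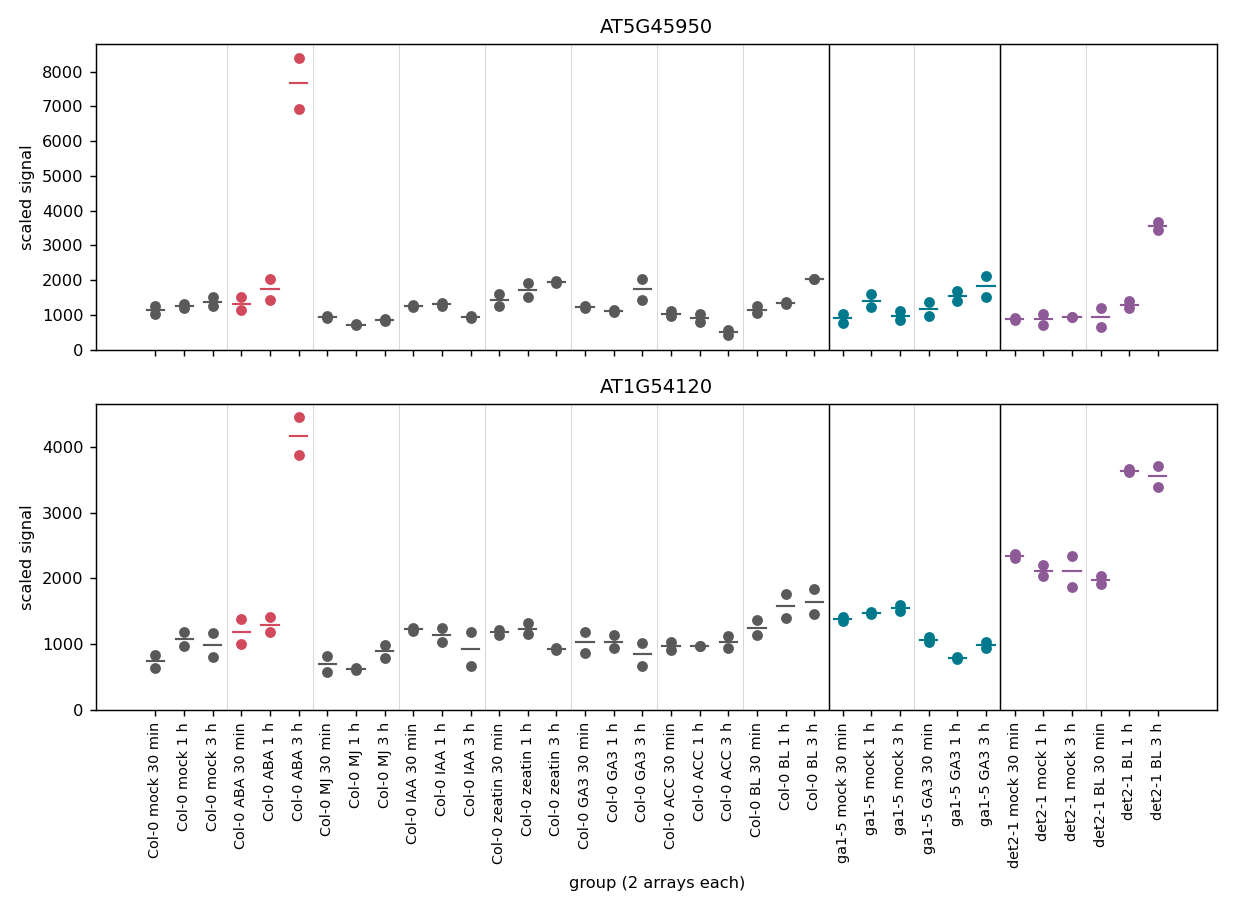
Scaled signal of AT5G45950 (top) and AT1G54120 (bottom) on each array of the 36 groups, with bars at the group means (red for ABA, grey for other Col-0, blue-green for ga1-5, purple for det2-1). AT5G45950 is raised in Col-0 ABA at 3 h (8400 and 6929) and det2-1 BL at 3 h (3438 and 3678) and is low in Col-0 ACC at 3 h, and AT1G54120 is high on all det2-1 arrays.

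Mock-treated mutants and mock-treated Col-0 differed in 22 of 101 members for ga1-5 at 30 min. Of all 17262 probe sets 3642 were called (21.1%), a share near that of the members. For det2-1 it was 17 of 101 members, where 1579 probe sets were called (9.15%), a smaller share. At an unadjusted limma p under 0.05 ga1-5 gave 29.7% of members and 31.9% of all probe sets. By the same measure det2-1 gave 27.72% of members and 23.3% of all probe sets. In ga1-5 the called members were higher for 17 and lower for 5, and in det2-1 they were higher for 4 and lower for 13. Among all probe sets 1720 were higher (9.96%) and 1922 lower (11.1%) in ga1-5, and 645 were higher (3.74%) and 934 lower (5.41%) in det2-1. Without Col-0 mock replicate 2 the ga1-5 count was 12. The det2-1 count was 8 and 7 without Col-0 mock replicates 1 and 2, and 7 and 6 without det2-1 replicates 1 and 2. Genotype and set cannot be told apart in these comparisons. The mutant arrays were deposited brighter than those of Col-0, and rescaling moved the median difference of all probe sets from 1.22 to 0.03 in ga1-5 and from 1.21 to 0.07 in det2-1. On the deposited scale 62 members were called higher and 0 lower in ga1-5, and 48 higher and 1 lower in det2-1. The shoot marker RCA read 22160 and 16556 in Col-0, 9871 and 9755 in ga1-5 and 7209 and 3640 in det2-1 mock seedlings at 30 min. It was called in neither mutant (limma adjusted p 0.355 in ga1-5 and 0.0741 in det2-1). The root hair marker EXPA7 read 1107 and 1106 in Col-0, 526.2 and 639.4 in ga1-5 and 920.0 and 983.0 in det2-1. EXPA7 (0.213 and 0.841) and EXPA18 (0.763 and 0.463) were not called either. The part of these markers in the member differences was not tested.

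AT3G15670, the LEA gene, was the member with the largest ga1-5 difference at 30 min, though not later. It had 13.3 and 10.1 in Col-0 and 188.7 and 463.1 in ga1-5 mock seedlings at 30 min. The level difference was 2.41, which is 5.33-fold and less than the ratio of these signals (SE 0.64, limma adjusted p 0.00459). The groups did not overlap, but the call was lost without ga1-5 replicate 2 (0.103), and both ga1-5 values stood far under the 7084 and 5433 of Col-0 after 3 h of ABA. At 1 h the mock arrays overlapped, with 91.1 and 141.6 in Col-0 and 242.4 and 132.6 in ga1-5, and so did those at 3 h, with 45.2 and 138.9 against 106.1 and 546.3 (log2 differences of 0.48 and 1.16). The highest ga1-5 difference was that of 258957_at at 1 h (2.86) and of 252340_at at 3 h (2.74), as values without a test. At 30 min the unnamed 258957_at had 1526 and 1536 in Col-0 and 5762 and 7148 in ga1-5 (4.08-fold, SE 0.43 on the log2 scale, adjusted p 0.000497). The unnamed 245113_at had 698.5 and 731.1 in Col-0 and 1995 and 2250 in ga1-5 (2.82-fold, SE 0.25, adjusted p 1.79e-05). The calls of 258957_at and 245113_at held without each array in turn. In det2-1 the same probe sets read 2298 and 1821 and 405.0 and 593.5, and neither was called.

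One member, 252340_at, was higher in ga1-5 than in Col-0 after ABA, and it is named for that reason after its values were seen. It had 247.1 and 98.7 in Col-0 mock and 861.0 and 1093 in ga1-5 mock seedlings at 30 min (4.76-fold, limma adjusted p 0.0014, 0.0637 without Col-0 mock replicate 2). At 3 h it reached 968.5 and 1701 in ga1-5 mock seedlings, against 857.4 and 722.3 in Col-0 under ABA. The other 101 members had their highest group mean of all 36 groups in Col-0 ABA at 3 h. The rule chose members that were high in that group, so this rank is a description without a test. The next highest group was one of the 12 mutant groups for 46 members and one of the other 23 Col-0 groups for the rest, among them ABA at 1 h for 13.

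Both mutants called 7 members in common, which is 31.8% of the ga1-5 and 41.2% of the det2-1 calls, and all 7 lay on the same side of Col-0 in both. All 7 are named here, whatever their rank. The 2 comparisons share the Col-0 mock arrays, so their calls are not independent. The overlap over all probe sets is not given here, so these counts only describe the members. AT1G54120 had 638.9 and 833.2 in Col-0, 1354 and 1407 in ga1-5 (1.83-fold, SE 0.20 on the log2 scale, limma adjusted p 0.00115) and 2309 and 2364 in det2-1 (3.05-fold, SE 0.20, adjusted p 1.61e-07). Its 3 groups did not overlap and the calls held without each array in turn. AT1G68570, the NPF3.1 transporter, had 1826 and 1421 in Col-0, 3154 and 2506 in ga1-5 and 3290 and 3077 in det2-1. It lost its ga1-5 call without Col-0 mock replicate 2 or ga1-5 replicate 1 (adjusted p up to 0.201), and its det2-1 call without Col-0 mock replicate 2 or either det2-1 array (up to 0.141). The unnamed 253264_at was higher by 0.72 in ga1-5 and 0.54 in det2-1, and its det2-1 call was lost without any 1 of the 4 arrays (0.298 at most).

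The other 4 shared members were lower in the mutants. AT5G50100, the DCC oxidoreductase gene, had 755.2 and 876.0 in Col-0, 261.5 and 351.9 in ga1-5 (limma adjusted p 0.000683) and 278.7 and 226.1 in det2-1 (0.000239). AT2G21100, the dirigent gene, had 879.9 and 727.7 in Col-0, 175.0 and 389.1 in ga1-5 (0.00124) and 289.6 and 185.8 in det2-1 (0.00111). In both genes all 4 mutant arrays lay under both Col-0 arrays, although neither gene was called on the deposited scale. The AT5G50100 calls held without each array in turn, while AT2G21100 lost its ga1-5 call without ga1-5 replicate 1 (0.103) and its det2-1 call without det2-1 replicate 2 (0.0606). The unnamed 259789_at had 1409 and 1226 in Col-0, 521.7 and 489.2 in ga1-5 (adjusted p 3.78e-07) and 616.9 and 653.5 in det2-1 (0.000131, and 0.15 higher rather than lower on the deposited scale). Neither call of 259789_at held on the deposited scale (limma adjusted p 0.742 in ga1-5 and 0.617 in det2-1). The unnamed 248207_at had 1147 and 1011 in Col-0, 545.3 and 390.1 in ga1-5 (0.000345) and 426.1 and 609.9 in det2-1 (0.0036), and on the deposited scale it turned to 0.05 and 0.13 higher. The det2-1 call of 248207_at was lost without Col-0 mock replicate 1 or det2-1 replicate 1 (adjusted p up to 0.102).

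**Figure D5:**
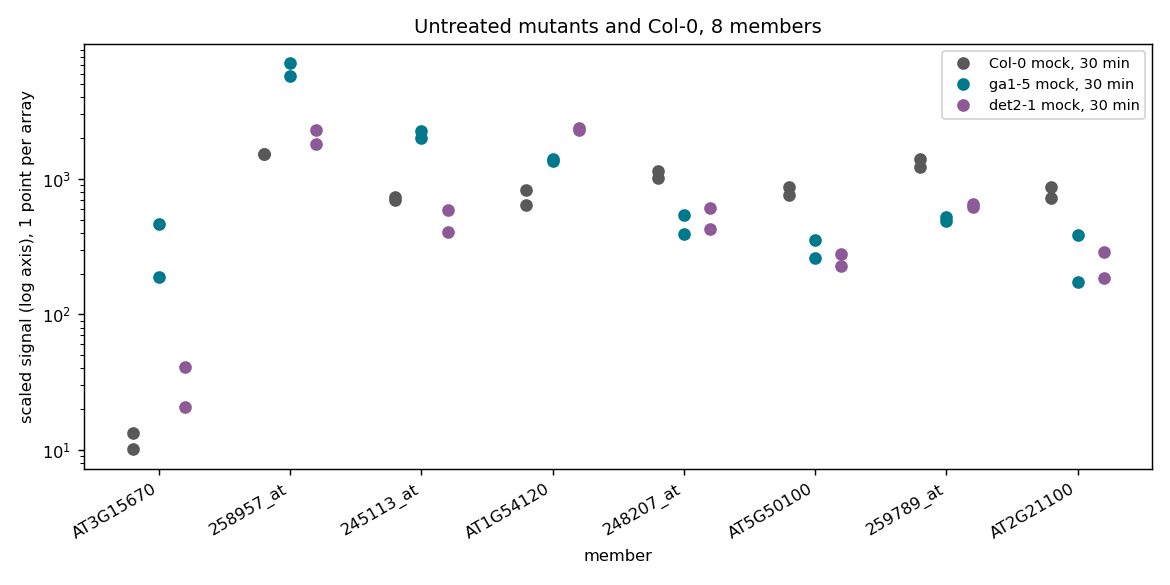
Scaled signal (log axis) of 8 members called between mock-treated mutants and mock-treated Col-0 at 30 min, 2 points per genotype. AT3G15670, 245113_at and 258957_at are raised in ga1-5, AT1G54120 is raised in both mutants and most in det2-1, and the 4 members on the right lie lower in both mutants.

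CCR2 and AT1G68850, chosen after their values were seen, were called lower in det2-1 and not called in ga1-5. They are CCR2 of the lignin pathway, with 163.0 and 236.0 in Col-0 and 30.4 and 18.6 in det2-1 mock seedlings (-1.67, SE 0.46, limma adjusted p 0.0143), and the peroxidase gene (-1.52, SE 0.37, adjusted p 0.00505). Outside ABA at 3 h the highest group mean of CCR2 was 8.41, under ABA at 30 min. CCR2 may thus have passed the filter only through the ABA arrays at 3 h, where the rule made it high, so its call is a description. The difference between mutants was not tested. On the deposited scale the det2-1 call of AT1G68850 was lost (limma adjusted p 0.263). That of CCR2 was lost with only the arrays of the sets compared (0.0547). CCR2 lost its call without Col-0 mock replicate 2 or either det2-1 array (0.146 at most), and AT1G68850 without Col-0 mock replicate 1 or det2-1 replicate 2 (0.183 at most). Of the 101 members tested, 65 were called in none of the comparisons described. The matching share over all probe sets is not given here, so this count shows nothing particular to the members.

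The wider ABA pathway could be read at few points, because the annotation used here named a probe set for 7 of its 85 listed genes. Of synthesis, transport, receptor, phosphatase, kinase and transcription factor genes none was named. All 5 named dehydration target genes rose at 3 h of ABA in limma, where 10.2% of all probe sets rose, and none of the 5 is a member. LEA4-5, a LEA protein, had 141.0 and 13.8 in mock and 12870 and 16261 in ABA seedlings. Its level difference amounted to 125.0-fold, less than the ratio of these signals (limma adjusted p 6.26e-12). LTI30, a dehydrin, had 1491 and 1606 in mock and 22894 and 30207 in ABA seedlings (adjusted p 6.31e-16). Both had already risen at 1 h, by 2.73 (adjusted p 0.00638) and 3.18 (1e-11) on the log2 scale, which is above the limit of the rule at 1 h. COR15A, the chloroplast cold-regulated protein, rose 49.5-fold at 3 h (adjusted p 6.1e-13), and its 1 h difference was already 1.78 (0.0243). COR47, a dehydrin, rose 3.64-fold at 3 h (3.81e-08), with 1.35 at 1 h (0.000162). COR15B, the close relative of COR15A, rose 7.85-fold at 3 h (adjusted p 5.95e-08) and showed 0.52 at 1 h (0.789). It met the ABA conditions of the rule, so the limit on MJ or IAA at 3 h left it out. Its MJ and IAA values are not given here. Probes of close relatives can cross-hybridise. UGT71C5, which attaches glucose to ABA, showed -0.02 at 3 h (adjusted p 0.969), with unequal mock arrays of 1158 and 396.8. Without mock replicate 1 its difference was 0.70 (adjusted p 0.0235) and without mock replicate 2 it was -0.73 (0.0177). UGT71B6, of the same function, was too dim to be tested.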

How the data were processed

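Each array was deposited as linear signal intensities, which the submitters' processing notes trace to MAS5; detection calls and scanner files were not used here. Of 22810 probe sets 64 were controls. The deposited intensities had 2% trimmed means of 871 to 1158 in Col-0 and 1810 to 2963 in the mutants, so every array was rescaled to 1147. Then 55 was added and log2 taken, which understates the change of dim probe sets. On Col-0 IAA 30 min replicate 2, impossible values of 1973 probe sets were set missing (1456 of them tested), so IAA there rests on 1 array. Tests covered the 17262 probe sets above the 40th percentile of signal on 2 or more arrays. A linear model with a mean for every group was fitted to all 72 arrays in limma 3.58.1 (R 4.3.3), leaving 36 residual degrees of freedom; eBayes used an intensity trend. Two-sided p-values were Benjamini-Hochberg adjusted over all tested probe sets, with a threshold of 0.05. Tables were made in Python 3.11.15, and the fit was tested on simulated data.

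Members and lists were chosen with earlier results of these data known. Members given array by array are the 14 named ones with the largest ABA change at 3 h, up to 4 per comparison with the smallest adjusted p, and the 3 nearest the threshold on each side; others were named after their values were seen, as were the role groups, whose roles are background knowledge because the annotation holds no product names. Gene names come from the platform annotation, updated through RefSeq TAIR10.1. No sequence of the members is printed and no motif search was made. Alternatives changed the scaling, the pseudocount, the filter, the variance trend, the arrays in the fit and the replicate block, and left out each array in turn.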

Additional observations from a re-analysis of the deposited data

How the results depend on the processing

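Of the counts of members called, those for ABA at 30 min and for the change from 30 min to 3 h stayed at 0 under each alternative run, as did the count for GA3 in ga1-5 at 3 h except with a replicate block (3). The 7 members that differed among zeatin, GA3, ACC and BL became 2 on the deposited scale, 12 with a replicate block, 3 with only the arrays of the sets compared, and 4 to 10 without 1 array, the lowest without zeatin replicate 1. The 22 members of ga1-5 against Col-0 became 62 on the deposited scale and 12 to 19 without 1 array, and the 17 of det2-1 became 49 and 6 to 8. On that scale the mutant arrays are brighter as a whole. The count for the other 6 hormones at 30 min was 0 to 1 without 1 array, and that for BL in det2-1 was 1 to 3, the lowest without BL replicate 1. The 5 pathway genes called were 5 to 6. The replicate numbers are not stated to pair arrays: deviations of same-numbered arrays correlated between 0.018 and 0.34, and the block moved no other count of members by over 1.5 times where it could be run, which excludes comparisons between sets (mutants against Col-0, 3 h against 30 min). Over all probe sets the block moved the calls from 54 to 113 for ABA at 30 min, 417 to 669 for the other 6 hormones, 25 to 111 for GA3 in ga1-5, 771 to 1352 for BL in det2-1 and 1225 to 2253 among the 4 hormones at 3 h. Over 55 single changes and their alternatives, 118 of 704 settings took a call under the threshold, 81 of them by leaving out 1 array, 7 turned the sign and 2 brought a call, both for UGT71C5 and in opposite directions. On the deposited scale det2-1 against Col-0 turned to 0.13 for 248207_at, 0.33 for AT3G57020, 0.032 for 259282_at and 0.15 for 259789_at, and ga1-5 to 0.047 for 248207_at and 0.37 for 248818_at. UGT71C5 under ABA at 3 h turned to 0.70 (limma adjusted p 0.0235) without Col-0 mock 3 h replicate 1 and to -0.73 (0.0177) without replicate 2; the cause was not tested. The rule itself gave 81 to 120 members under its alternatives, and with 50% of the median signal as pseudocount 83, of which 51 were shared with the 102.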
